A study of Danio rerio with 3 samples.

Results

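The genes described here encode the proteins of the cytoplasmic ribosome. They were chosen by name on a zebrafish oligonucleotide array, as every gene called rpl or rps with a number and at most 1 further letter, together with rplp0, rplp1, rplp2, rpsa and fau. This gave 67 of 27355 gene names, carried by 182 of 43603 probes. The large subunit had 38 of these genes with 108 probes and the small subunit 29 genes with 74 probes. The number of probes for a gene ran from 1, in 11 genes, to 5, in 4 genes. A further 12 genes of the same class were recognised through the accession of their probe in a RefSeq gene table but carry another name on the array, and they are kept apart below. Among them are rps6 and rps27a. The muscle paralogue rpl3l was not found on the array under that name.

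RNA came from whole wild type zebrafish embryos bathed from 0 to 2 hours post fertilisation (hpf) in the steroid hormone cortisol, at 13.8 µM or 5 mg/L, or in its vehicle, 2 ml of absolute ethanol in 1 L of fish water. All embryos were then raised at 28.5 °C and fixed at 5, 12 or 24 hpf. On the 2-colour arrays the vehicle RNA carried the green dye Cy3 and the RNA of treated embryos the red dye Cy5, with no dye swap at any stage. Although the labels count 4, 3 and 1 replicates for the stages in that order, each stage has 1 set of values, read here as the mean of its replicates. No label or file header states this, and the 12 hpf labels could also mean the first replicate alone. No error between embryo batches could therefore be computed, and no test was possible. The spread between different probes of a gene is given instead, and it does not measure error between embryo batches.

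A ribosome joins ribosomal RNA with a fixed set of proteins, 1 copy of most of them, and the embryo starts with ribosomes and messengers laid down in the egg. The messengers of vertebrate ribosomal proteins begin with a run of pyrimidines that ties their translation to growth signals, and they are among the most abundant in growing tissue. In zebrafish the embryo's own genome becomes active in the blastula, before the earliest stage measured, and segmentation and organ formation fill the interval up to 24 hpf.

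A probe counted as measured in a channel if it was brighter than the 153 negative control spots by more than 2 SD above their mean. By this rule 66 of the 67 genes were measured in both channels at every stage. The exception was a small-subunit gene whose single probe was not above the controls in both channels at any stage. That probe was measured in red at 12 hpf and never in green. Of the 182 probes, 16, 21 and 23 were not measured in both channels at 5, 12 and 24 hpf. All but 1 of these carried an accession that the RefSeq table does not hold, the exception falling at 24 hpf.

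Ribosomal protein spots were among the brightest of the array. Of the measured probes, 92.2% lay above the array's 75th percentile of mean signal at 5 hpf, 97.5% at 12 hpf and 98.7% at 24 hpf. Their median green signal above local background was 8986 units at 5 hpf, 47615 at 12 hpf and 30800 at 24 hpf, and their median red signal 17433, 4037 and 4351. The red channel was dim over the whole array at the later stages, since the 95th percentile of red signal was 7318 at 5 hpf, 330 at 12 hpf and 290 at 24 hpf, against 3709, 4349 and 1978 in green. A probe for rpsa, the small-subunit protein also known as the laminin receptor precursor, was the brightest green probe at 12 hpf (103492 units) and at 24 hpf (65304 units). Control spots were left out of this ranking. In either channel 7, 32 and 3 probes of these genes exceeded 60000 units. As a check of the stages, all 13 measured markers of early embryos were lower in vehicle RNA at 24 hpf than at the first stage, and all 11 measured late markers were higher.

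The vehicle time course asked how these transcripts stood as the embryo developed without hormone. Levels are log2 green signals, quantile normalized over the 3 arrays. All 66 measured ribosomal protein genes had a higher vehicle signal at 12 than at 5 hpf, with a median difference of 1.63 on the log2 scale, or 3.09-fold. Of all 16542 genes measured in green at every stage, 49.4% were higher. At least 2-fold higher at 12 hpf were 54 of the 66, where 15.6% of all genes were. The pooled SD between probes of a gene was 0.67 for this difference.

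From 12 to 24 hpf the signals differed little. The median difference was 0.21, with 62 of 66 genes higher (39.7% of all genes) and none 2-fold higher (5.27% of all genes), and the probe SD was 0.24. The sign of this median did not hold under other settings. It was -0.38 when the arrays were centred on their medians and -0.01 when spots over 60000 units in either channel were left out. Median centring moved the median of all genes as well, to -0.36, so relative to all genes the ribosomal protein genes lay only slightly apart under it. Under 75th percentile scaling the median of the ribosomal protein genes was 0.21 and that of all genes 0.23.

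Over the whole interval from 5 to 24 hpf the median difference was 1.78, or 3.45-fold, and the probe SD was 0.78. All 66 genes were higher (46% of all genes) and 58 at least 2-fold higher (17.4% of all genes). The median was 2.17 under 75th percentile scaling, where all genes had a median of 0.27, and 1.69 under median centring, where all genes had one of -0.21. The interquartile range over the genes ran from 1.20 to 2.31. This range also holds the spread between probes of a gene, and the part that lies between genes was not tested. The 5 hpf array lay on another slide than the later ones, so slide and stage cannot be told apart there. In whole embryos a larger share of cells with many ribosomes and more transcript per cell cannot be told apart either.

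**Figure D1:**
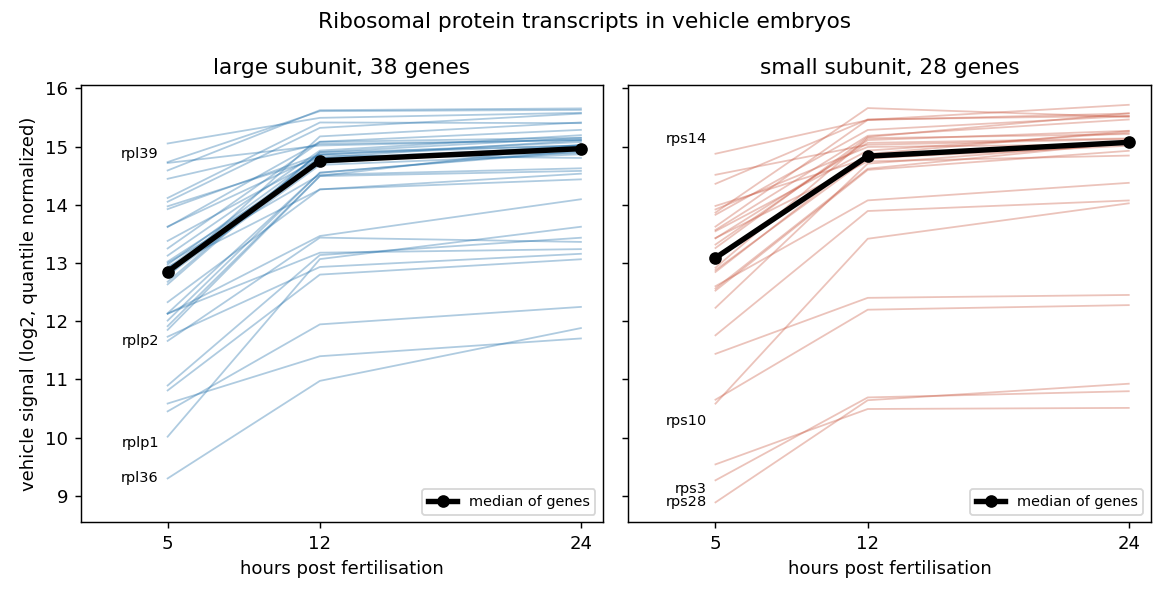
Vehicle signal (log2, quantile normalized) at 5, 12 and 24 hpf, with a thin line for each measured gene of the large subunit (left, 38 genes) and of the small subunit (right, 28 genes) and a thick line for their median. Medians were 12.85, 14.76 and 14.96 in the large subunit and 13.09, 14.83 and 15.07 in the small subunit, and every line stands higher at 12 than at 5 hpf.

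The subunits were set side by side. The large-subunit genes had a median vehicle difference of 1.60 from 5 to 12 hpf and 1.85 from 5 to 24 hpf. The small-subunit genes had 1.63 and 1.75. The difference between the subunits was not tested. At least 2-fold higher at 24 than at 5 hpf were 33 of 38 large-subunit and 25 of 28 small-subunit genes.

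The stalk proteins had some of the largest differences. They form the flexible arm of the large subunit that recruits elongation factors. The vehicle level of rplp1 was 10.02 at 5 hpf, 13.07 at 12 hpf and 13.62 at 24 hpf, a difference of 3.61 (12.2-fold) over the whole interval and the largest among the members. Its partner rplp2 stood at 11.91, 14.49 and 15.02, a difference of 3.11 (8.62-fold). Each has 1 probe, so neither has a probe spread. The base of the stalk, rplp0, was at 12.33, 14.26 and 14.44, a difference of 2.11 with probes from 1.72 to 2.49. In all 3 stalk genes most of the difference lay before 12 hpf.

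The next largest differences were found in both subunits. In the small subunit rps10, a protein of the head near the path of the messenger, stood at 10.58, 13.42 and 14.02, a difference of 3.44 from its single probe. Also in the small subunit, rps26l, named for rps26, a protein at the exit of the messenger, was at 12.23, 14.71 and 15.06, a difference of 2.83 with probes at 2.71 and 2.94. In the large subunit rpl35a, which is mutated in some human patients with Diamond-Blackfan anaemia, was at 12.01, 14.55 and 14.91, a difference of 2.90 from its 1 measured probe. These 3 genes, too, stood nearer to their last level at 12 hpf than to their first.

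Under quantile normalization the smallest differences belonged to genes that were already bright at 5 hpf. The level of rpl39, a small protein of the tunnel through which the growing chain leaves, was 14.72, 15.02 and 15.12, a difference of 0.40 over the whole interval (1.32-fold) with probes at 0.16 and 0.64. That of rpl12, at the foot of the stalk, was 15.05, 15.49 and 15.58, a difference of 0.53 from 1 probe. For rps20, of the small-subunit head, it was 14.51, 15.03 and 15.13, a difference of 0.61 with probes from 0.39 to 0.95. These 3 genes were higher at each successive stage, by small steps in the quantile normalized levels. The signal recognition particle docks near rpl23a at the tunnel exit, and this gene stood at 14.45, 15.04 and 15.11, a difference of 0.66 with probes from 0.28 to 1.16. The level of rps14, whose loss of a copy is tied to the anaemia of the human 5q- syndrome, was 14.88, 15.45 and 15.57, a difference of 0.69 with probes from 0.11 to 1.78. For rps14 the spread of probes was wider than the difference itself. These sizes depended on the scaling. Under 75th percentile scaling the differences of rpl39, rpl12, rps20, rpl23a and rps14 were 1.19, 1.34, 1.32, 1.37 and 1.35, each past 2-fold.

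**Figure D2:**
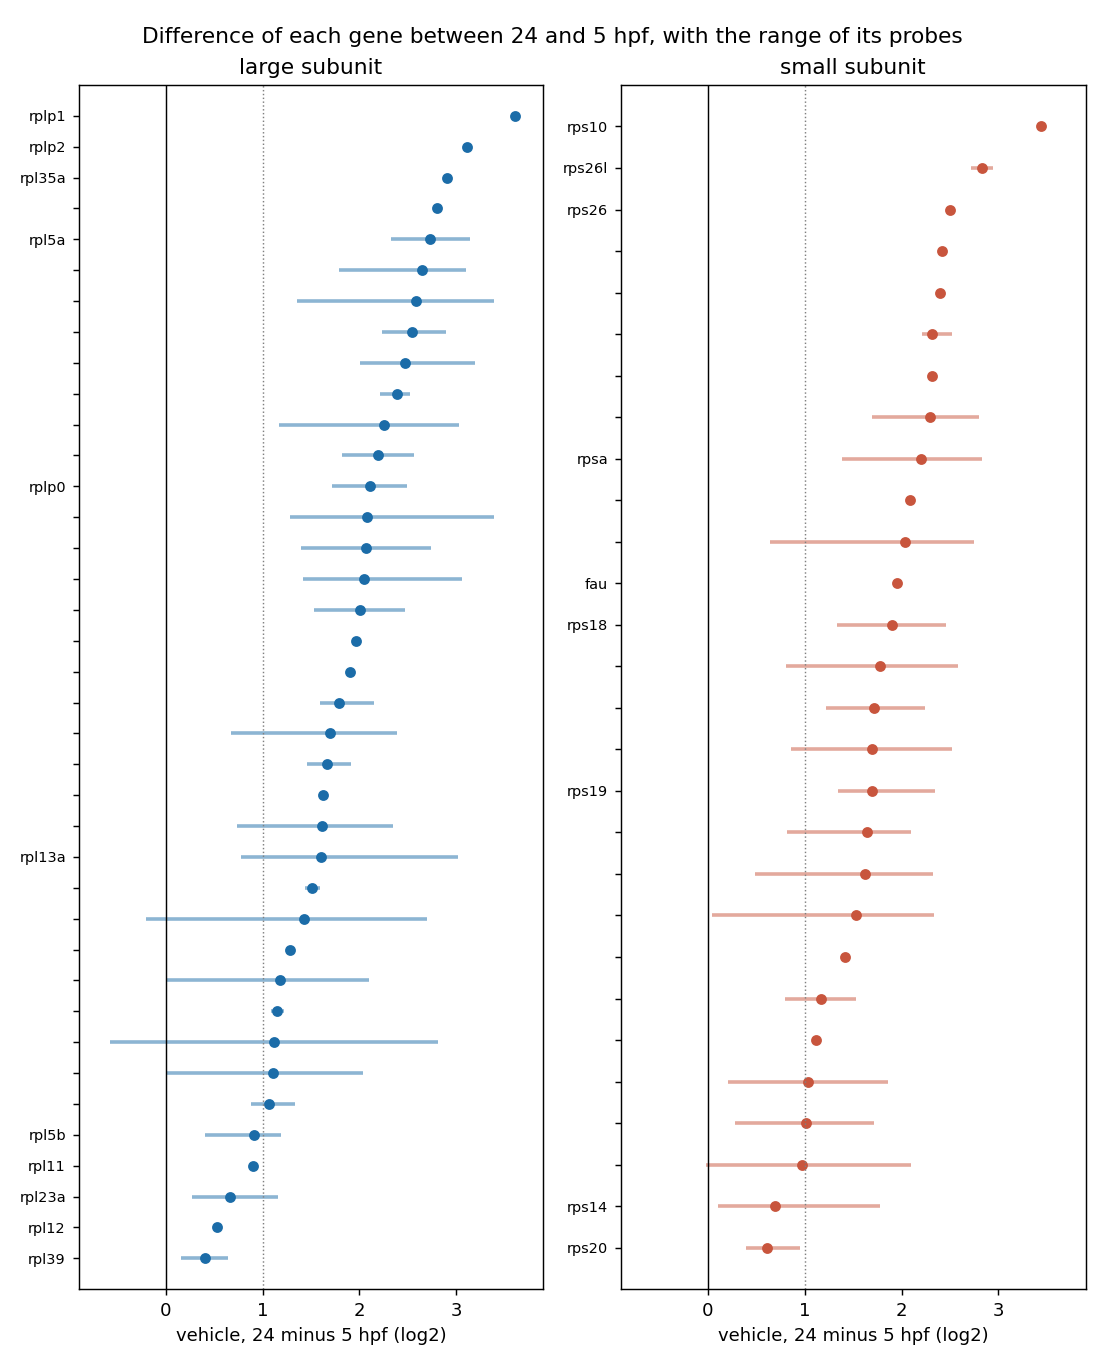
Difference in vehicle signal between 24 and 5 hpf (log2, horizontal axis) for each measured gene of the large and the small subunit, sorted by its value. Points are the mean over the gene's measured probes, bars reach from the lowest to the highest probe, a point with no visible bar has 1 measured probe or probes that nearly coincide, genes whose vehicle levels or differences are given in the text are labelled, and the dotted line marks 2-fold. Genes run from 0.40 for rpl39 to 3.61 for rplp1. Under 75th percentile scaling, not drawn, rpl39 was at 1.19 and rplp1 at 3.57.

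Paralogous genes did not always share a course. The proteins Rpl5 and Rpl11 join the 5S ribosomal RNA into a particle that, in mammals, also binds the p53 regulator Mdm2. The zebrafish gene rpl5a was at 11.85, 14.49 and 14.58, a difference of 2.73 with probes at 2.32 and 3.14. Its paralogue rpl5b was at 13.97, 14.80 and 14.89, a difference of 0.91 with probes from 0.41 to 1.19. No probe of rpl5b reached the difference of either rpl5a probe. The gene rpl11 was at 14.73, 15.61 and 15.63, a difference of 0.90 with probes at 0.86 and 0.93. In contrast rps26 and rps26l had similar differences, 2.51 and 2.83. Probes of close paralogues may bind each other's transcripts, which was not checked here.

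Other members of the naming list lay between these ends. The difference from 5 to 24 hpf was 2.20 for rpsa, with probes from 1.38 to 2.83, and 1.95 for fau, which encodes a small-subunit protein fused to a ubiquitin-like domain, from its 1 measured probe. It was 1.90 for rps18, with probes at 1.34 and 2.46, and 1.69 for rps19, the gene most often mutated in Diamond-Blackfan anaemia, with probes from 1.34 to 2.34. For rpl13a, a large-subunit protein that human cells can also release to silence messengers, it was 1.60 with probes from 0.78 to 3.02.

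Across probes and within genes, the difference went with the brightness of the spot. Over 164 probes measured in green at all stages, Spearman's rho between the log2 signal at 5 hpf and the difference from 5 to 24 hpf was -0.59 and Pearson's r -0.20. Under 75th percentile scaling these were -0.42 and 0.06, so Pearson's r was then near 0. Over the 146 probes with a RefSeq accession rho was -0.83 and r -0.63, and under 75th percentile scaling -0.68 and -0.38. The points share the arrays and the 5 hpf signal enters both measures, so this is a description only. The dimmer 73 of these probes had a median difference of 2.42 and the brighter 73 a median of 1.36. In 42 of 49 genes with several such probes, the probe that was dimmest at 5 hpf had a larger difference than the brightest. Over all 164 probes this held in 39 of 51 genes, and in 34 of 51 under 75th percentile scaling. Of all 164 probes 161 were higher at 24 than at 5 hpf. Whether a ceiling on bright spots shaped the size of these differences was not tested.

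**Figure D3:**
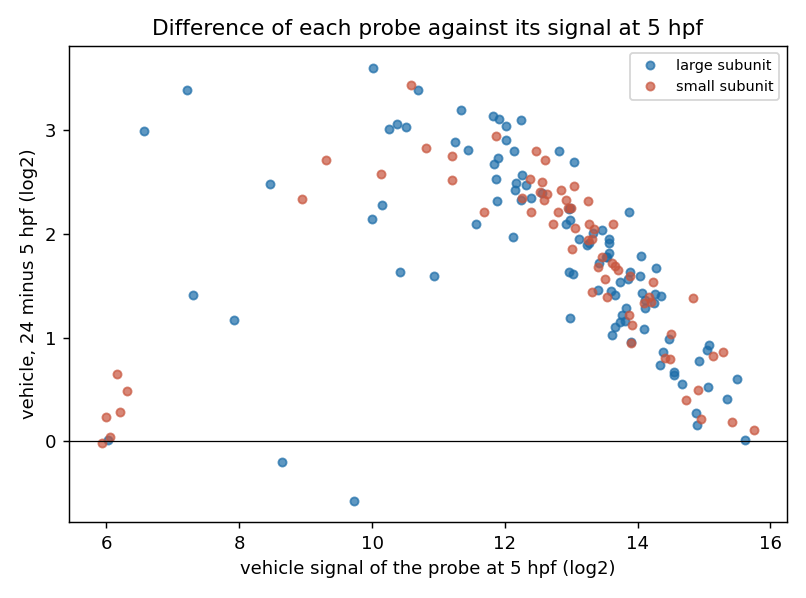
Difference in vehicle signal between 24 and 5 hpf (log2, vertical axis) against vehicle signal at 5 hpf (log2, horizontal axis) for the 164 ribosomal protein probes measured in green at all stages, coloured by subunit. The points of bright spots lie along a band that nears 0 at the highest signals, and 161 of the 164 lie above 0.

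The red channel gave a second course, that of the cortisol-treated embryos on the same arrays. Its median difference for the 66 genes was 1.69 from 5 to 12 hpf, 0.22 from 12 to 24 hpf and 1.94 from 5 to 24 hpf. At least 2-fold higher at 12 than at 5 hpf were 60 genes (15.8% of all 10439 genes measured in red at every stage), and 59 at 24 hpf (18.3% of all genes). These sizes depended on the scaling. Under 75th percentile scaling the medians were 0.66 to 12 hpf and 0.79 to 24 hpf. Then 17 and 22 genes were 2-fold higher, and 58 and 57 of 66 genes were above 0. The shares of all genes above belong to quantile normalization, and those under 75th percentile scaling are not given here. Across the 66 genes the differences from 5 to 24 hpf in green and in red had a Pearson r of 0.86 and a Spearman rho of 0.79. Both channels share the arrays and most probes. Under quantile normalization the red difference was the larger in 42 of 66 genes, and the median of red minus green was 0.05. Under 75th percentile scaling the medians stood the other way, the red one to 24 hpf, 0.79, lying below the green one given above. Probes were filtered in each channel by itself, so some genes were not compared over the same probes. At 24 hpf rps7, for example, had 4 probes measured in green and 2 in red.

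Other parts of the translation machinery did not all follow. Mitochondrial ribosomal proteins, a separate set encoded in the nucleus, had a median vehicle difference from 5 to 24 hpf of 0.74 over 64 genes, of which 51 were higher. Of all genes 46% were higher over this interval, with a median of -0.08. Elongation factors and their partners had a median of -0.16, with 5 of 11 genes higher and eef1db, of the factor that recharges the elongation factor eEF1A, highest at 2.50. Initiation factors and poly(A)-binding proteins had 0.09, with 22 of 37 higher. Factors that meet the nascent chain or sit on the ribosome had 1.04, with 6 of 10 higher and values from -1.41 to 1.81. The highest were btf3, of the nascent polypeptide complex, at 1.81 and the scaffold rack1 at 1.62. Nucleolar genes of ribosome assembly had a median of 0.35 from 5 to 12 hpf but of -0.64 from 12 to 24 hpf, where 44 of 47 were lower against 60.3% of all genes, and wdr75 reached -2.23 over the whole interval. The 12 further ribosomal protein genes had a median of 1.78 from 5 to 24 hpf, all 12 higher. Among these rps6, the target of S6 kinases, differed by 2.50 and rps27a, made as a fusion with ubiquitin, by 1.90.

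The comparison with cortisol asked whether a short exposure of the egg altered these transcripts at each later stage. Positive log2 ratios stand for more signal after cortisol. Ratios from the scanner signals were normalized by loess within each array, which sets a gene against others of like brightness. The ratio that the authors deposited is given beside them.

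At 5 hpf the ribosomal protein genes lay close to vehicle. Their median log2 ratio was -0.06, with 22 of 66 genes above 0, where 53.7% of all 19405 measured genes and 54.7% of those above the 75th percentile of signal were above 0. The interquartile range ran from -0.17 to 0.03. The authors' deposited ratio gave a median of -0.10 with 18 genes above 0 (51% of all genes), but with the arrays only centred on their medians the median was 0.47 and all 66 genes were above 0. That setting placed 68.6% of all genes above 0 at 5 hpf, with a median of 0.16. None of the 66 reached 1.5-fold in either direction, where 2.96% of all genes were 1.5-fold higher and 0.933% were 1.5-fold lower. The deposited ratio also placed none of them past 1.5-fold, where it placed 9.32% of all genes higher and 7.14% lower. The pooled SD between probes of these genes was 0.14.

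The lowest ratio at 5 hpf was that of fau, at -0.39 from 1 measured probe. The stalk gene rplp0 followed at -0.36, with its 4 probes from -0.46 to -0.30, all below 0. Next were rps2, a protein of the messenger's entry, at -0.29 with 5 probes from -0.39 to -0.19, rpl13a at -0.28 with probes from -0.52 to -0.08, and rpl19, which helps to bridge the subunits, at -0.26. In the deposited ratio these 5 genes lay at -0.36, -0.40, -0.38, -0.33 and -0.24, on the same side, whereas under median centring fau, for example, was at 0.19. The highest was rps14, at 0.33 with probes from 0.14 to 0.43 and a deposited ratio of 0.21. Its red signal was also the brightest of the group at this stage, with a probe at 135479 units. After it came rps28 at 0.24, rps26 at 0.22, rpl24 at 0.20 and rps18 at 0.20, the last with probes at -0.03 and 0.43.

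At 12 hpf the genes lay on the higher side in the loess ratio. Their median was 0.28, or 1.22-fold, with 55 of 66 genes above 0, where 44.3% of all 12816 measured genes and 35.4% of those above the 75th percentile of signal were above 0. At least 1.5-fold higher were 7 genes, or 10.6%, where 1.59% of all genes and 2.71% of those above the 75th percentile of signal were, and none was 1.5-fold lower (3.25% of all genes). The deposited ratio did not show this: its median was 0.02, with 38 genes above 0 (40% of all genes) and none at 1.5-fold (6.08% of all genes higher and 11.8% lower). Median centring gave -2.94 with all 66 genes below 0, but it placed 92.9% of all genes below 0, with a median of -1.69. The probe SD was 0.39, and 22 of the 51 genes with several probes had probes on both sides of 0. Of all genes with several probes, 2460 of 4775 did.

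Among the 7 genes at least 1.5-fold higher at 12 hpf were rps14 at 0.80, rpl34 at 0.72, rps19 at 0.71, rpl26 at 0.71, rpl39 at 0.71 and rps18 at 0.66. Probes ran from 0.20 to 1.18 in rps14, from 0.20 to 1.12 in rps19 and from 0.22 to 1.09 in rps18, but more narrowly from 0.55 to 0.83 in rpl26 and from 0.67 to 0.74 in rpl39. In the deposited ratio the 7 genes lay between -0.01, for rpl39, and 0.41, for rpl34, and under median centring between -2.70 and -2.58. None of the 7 therefore kept a 1.5-fold higher value in the deposited ratio. Among the lowest genes were rps26 at -0.57 from 1 probe, rps3 at -0.52, rpl5a at -0.39 and rpl6 at -0.35. Both measured probes of rps3, at -0.69 and -0.35, were below 0. The deposited ratio was 0.07 for rps26, -0.14 for rps3, -0.33 for rpl5a and -0.12 for rpl6. The probes of rpl5a disagreed, at -1.06 and 0.27, as did those of rpl36a, from -0.98 to 0.74, and of rpl14, from -0.39 to 0.79.

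The loess ratio at 12 hpf went with brightness. Over 161 probes of these genes Spearman's rho between the ratio and the mean signal was 0.71 and Pearson's r 0.47, and in the deposited ratio 0.10 and 0.12. The dimmer 81 probes had a median ratio of 0.03 and the brighter 80 a median of 0.51, while the deposited medians were 0.02 and 0.04. At 5 hpf rho was 0.02, over 166 probes, and at 24 hpf it was 0.32, over 159 probes. The part of signal brightness in the 12 hpf ratio was not tested beyond these values. With the spots over 60000 units left out the median at 12 hpf was 0.23 over 61 genes. Of these 5 were at least 1.5-fold higher (1.58% of all genes), and the highest value was 0.76.

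**Figure D4:**
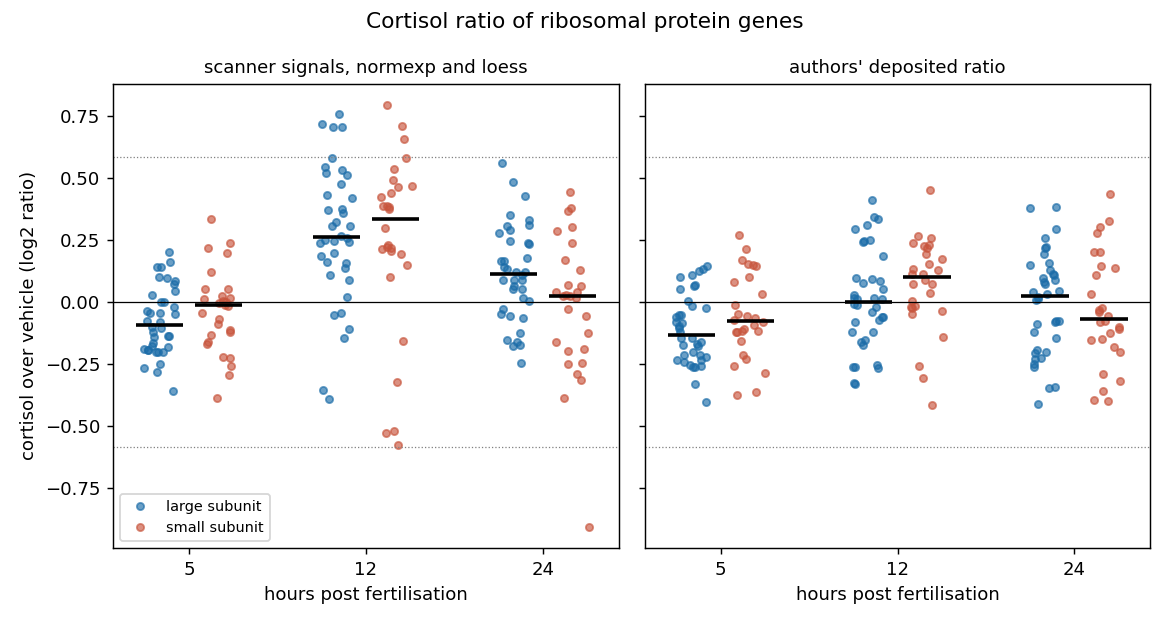
Log2 ratio of cortisol over vehicle for each measured ribosomal protein gene at 5, 12 and 24 hpf, by subunit, with bars at the medians and dotted lines at 1.5-fold. The left panel holds the loess ratio of the scanner signals, with medians over both subunits of -0.06, 0.28 and 0.07, and the right panel the authors' deposited ratio, with medians of -0.10, 0.02 and -0.03, in which no gene passes 1.5-fold. Under median centring, not drawn, the medians were 0.47, -2.94 and -2.49, and those of all genes 0.16, -1.69 and -1.21.

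At 24 hpf the genes were spread around 0. Their median was 0.07, with 44 of 66 genes above 0 (46.3% of all 12356 measured genes and 38.3% of those above the 75th percentile of signal), while the deposited ratio gave -0.03 with 32 genes above 0 (50.1% of all genes) and median centring -2.49 with none, where the median of all genes was -1.21. No gene was 1.5-fold higher (1.28% of all genes) and 1 was 1.5-fold lower (4.43% of all genes). That gene was rps26, at -0.91 from its single probe, but its deposited ratio was 0.20, and no gene passed 1.5-fold in the deposited ratio (10.1% of all genes higher and 9.19% lower). Its relative rps26l was second lowest at -0.39, with probes at -0.43 and -0.34 and a deposited ratio of -0.36. The probe SD at this stage was 0.29, and 30 of 51 genes had probes of both signs, as did 2331 of 4366 among all genes.

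The highest value at 24 hpf was that of rpl3, which lies next to the peptidyl transferase centre, at 0.56 with probes from 0.07 to 0.86. Then came rpl19 at 0.49 from 1 probe, rps2 at 0.45 with probes from 0.08 to 0.84, rpl4, which lines the exit tunnel, at 0.43 and rpsa at 0.38. In the deposited ratio these 5 lay between 0.14 and 0.39, all above 0. Also among the lowest was rps12, a protein of the small-subunit head, at -0.25 from its 1 measured probe, for which the deposited ratio had the opposite sign at 0.44. The widest spans between probes were those of rpl36a, from -1.27 to 0.40, of rpl6, from -0.76 to 0.18, and of rpl3.

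Some of the genes named above lay on different sides of 0 at different stages. The loess ratio of fau was -0.39, 0.58 and 0.07 at 5, 12 and 24 hpf, and its deposited ratio -0.36, 0.15 and -0.15. That of rps2 was -0.29, 0.39 and 0.45, but -0.38, -0.26 and 0.14 as deposited. For rps26 the order was the reverse, 0.22, -0.57 and -0.91, and as deposited 0.15, 0.07 and 0.20. Over all members, 36 of 66 (54.5%) were below 0 at 5 hpf and above 0 at 12 hpf, where 15.3% of 10412 genes measured at each stage were. In the deposited ratio this held for 22 of 66 (33.3%), where 16.0% of all genes did.

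Some genes kept 1 sign throughout. Above 0 at all 3 stages were 13 of 66 genes, or 19.7%, close to the 16.1% of all genes. Below 0 at all 3 were 7 of 66 genes, or 10.6%, among them rpl5a, rpl6, rpl7, rplp1 and rps3, against 20.4% of all genes. The deposited ratio turned this round, with 6 of 66 (9.09%) above 0 at all 3 stages against 14.4% of all genes, and 15 of 66 (22.7%) below 0 against 18.6%. The stalk gene rplp1 was among these at -0.19, -0.11 and -0.03, and in the deposited ratio at -0.22, -0.16 and -0.26, whereas its partner rplp2 was at -0.25, 0.47 and 0.33. Across the 66 genes Pearson's r between the ratios at 12 and 24 hpf was 0.61, and in the deposited ratio 0.25. Both stages share a slide, a dim red channel and most probes, and over all genes r was 0.55. Between 5 and 12 hpf r was 0.11, and between 5 and 24 hpf it was -0.25, against 0.37 and 0.07 in the deposited ratio.

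Large and small subunit were set against each other at each stage. At 5 hpf the large-subunit genes had a median ratio of -0.09 and the small-subunit genes one of -0.01. At 12 hpf the medians were 0.26 and 0.34, with 32 of 38 and 23 of 28 genes above 0. At 24 hpf they were 0.11 and 0.02, with 28 of 38 and 16 of 28 above 0. The large-subunit median minus the small-subunit median was thus -0.08, -0.07 and 0.09, and these gaps were not tested. In the deposited ratio the large-subunit medians were -0.13, 0.00 and 0.03 and the small-subunit ones -0.07, 0.10 and -0.07. The gap thus had the same sign at each stage as in the loess ratio. The sign at 12 hpf did not hold in the loess ratio with bright spots left out. The medians were then 0.24 over 35 large-subunit genes and 0.23 over 26 small-subunit genes. At 5 and 24 hpf the gap kept its sign under that setting.

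Related genes outside the name rule showed some larger ratios. Mitochondrial ribosomal proteins stood on the other side of 0 from the cytoplasmic ones at 5 hpf, with a median ratio of 0.21. Of 64 genes 52 were above 0 (53.7% of all measured genes). As deposited the median was 0.18, with 51 above 0 (51% of all measured genes). At 12 and 24 hpf their medians were -0.19 and -0.11, and as deposited -0.15 and -0.04. Among the 12 further ribosomal protein genes, rps27l, a p53 target in human cells, had ratios of -0.14, -0.48 and -0.82 at 5, 12 and 24 hpf, and -0.16, -0.24 and -0.79 as deposited. These come from 1 measured probe, with vehicle levels of 9.94, 10.88 and 11.19. The ratios of rps27a were 0.13, 0.55 and -0.03, and those of rps6 were -0.10, -0.07 and -0.10. The paralogue rpl7l1 lay at -1.36 at 12 hpf and -1.54 at 24 hpf, but at -0.49 and -0.30 as deposited. Initiation factors and poly(A)-binding proteins had medians of -0.19, -0.29 and -0.11, and as deposited of -0.19, -0.24 and 0.09. Elongation factors had -0.07, 0.09 and 0.14, and as deposited -0.08, -0.23 and 0.03. Nucleolar genes had -0.03, -0.13 and -0.14, and as deposited -0.06, -0.10 and -0.03. For p53 pathway genes the medians were -0.07, -0.05 and 0.03, and as deposited -0.16, -0.26 and 0.12.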

How the data were processed

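Per the file headers, the authors deposited for each spot the median intensity and the local background intensity of both channels, processed signals and, as their normalized value, the log10 of red over green, rescaled here to a log2 ratio. The scanner software was Agilent Feature Extraction per the submitters' processing notes, its version being not given in the sources used here. The labels name 4, 3 and 1 replicates, and no file gives values per replicate.

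Background was corrected by limma's normexp (offset 50), after leaving out the 12, 9 and 0 spots whose local background exceeded the array median more than 2 times. Ratios were normalized by loess with 1417 control spots at weight 0 (limma 3.58.1, R 4.3.3). Spots of a probe, then the measured probes of a gene name, were averaged. Of the 182 member probes 146 matched the RefSeq table, used for names only (Python 3.11.15, pandas 2.3.3, numpy 2.4.6, figures with matplotlib 3.10.9). Only the normexp, loess and quantile steps were run on simulated data, in which red over green did not depend on brightness. The outcome is not given here. No test or p-value was possible, and genes are counted by size alone, past 1.5-fold or 2-fold. The number of arrays limits the precision.

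Named are the 5 highest and 5 lowest ratios per stage, the 5 largest and, since none was lower, the 5 smallest vehicle differences, the 3 widest probe spans per stage, unmeasured members and a short list of genes. Also named are up to 3 genes with the largest values in each of the other lists, of which only some are printed. Some genes that these rules name are not reported here. Members, lists and rules were chosen with earlier results of these data known. No sequences are printed, since no sequence table was used here.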

Additional observations from a re-analysis of the deposited data

Results flagged for a closer look

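In the loess ratio the members' median log2 ratio of cortisol over vehicle had opposite signs at different stages. It was -0.056 at 5 hpf against 0.283 at 12 hpf and 0.066 at 24 hpf. In stage order the deposited medians were -0.101, 0.023 and -0.028, and those under median centring 0.47, -2.94 and -2.49. Among the genes, the loess ratio of fau lay at -0.387 at 5 hpf and at 0.580 at 12 hpf, each from the same single probe. Its deposited ratio was -0.36 and 0.15. With 1 set of values per stage these differences between stages were not tested.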

How the results depend on the processing

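No paired analysis was possible because each stage has a single set of values. Members' median ratios moved under median centring in place of loess. At 5 hpf the median was 0.47, with 18 genes at least 1.5-fold higher (13.2% of all genes). It was -2.94 at 12 hpf (0 higher, 66 lower) and -2.49 at 24 hpf (66 lower). At 12 and 24 hpf 81.9% and 76.1% of all genes were 1.5-fold lower too. Without background correction the members' medians were 0.89 at 12 hpf and 0.60 at 24 hpf. At least 1.5-fold higher were 52 genes at 12 hpf (1.93% of all genes) and 34 at 24 hpf (1.46% of all genes). At 24 hpf 0 were 1.5-fold lower (2.72% of all genes). With all spots in the normexp fit the median at 12 hpf was 2.10 (60 higher). The median and share of all genes under that setting are not given here, so a shift of the whole array cannot be told apart. At 12 hpf 11 genes were 1.5-fold higher with the median over probes (1.65% of all genes). The 7 genes 1.5-fold higher at that stage became 0 in the deposited ratio and in the ratio of processed signals. At 24 hpf the 1 gene 1.5-fold lower became 0 in both of these ratios. With the median over probes 1 gene was 1.5-fold higher at 24 hpf, for which the share of all genes is not given here. Chosen after seeing the data were loess without weight on the members (15 higher at 12 hpf, 1 higher at 24 hpf), probes with a RefSeq accession only (1 lower at 12 hpf) and the 12 further genes. Shares of all genes under these settings are not given here, so the counts describe the members only. For the vehicle course, the median from 12 to 24 hpf was -0.38 under median centring. With bright spots left out 1 gene was 2-fold higher, for which the share of all genes is not given here. For the cortisol-treated course under 75th percentile scaling, medians were 0.66 and 0.79, with 17 and 22 genes 2-fold higher. The early embryo marker list had a deposited median of -1.11 at 24 hpf.

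Under median centring at 12 hpf signs reversed for genes that include rpl26 (-2.70), rpl34 (-2.58), rpl39 (-2.64), rps14 (-2.60), rps18 (-2.70) and rps19 (-2.61). In the deposited ratio rpl39 at 12 hpf (-0.011) and rps26 at 24 hpf (0.20) reversed, and in the ratio of processed signals so did rpl39 (-0.00131) and rps26 (0.20). The cause was not tested. Of the summary values under the alternatives 231 stayed within their range and 42 moved.

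In stage order, 574, 204 and 158 of all genes were at least 1.5-fold higher, while the deposited ratio had 1808, 779 and 1244, and those lower numbered 181, 417 and 547 against 1385, 1510 and 1135. At 2-fold these were 112, 76 and 41 higher against 596, 361 and 453, and 27, 41 and 96 lower against 383, 395 and 321. At 12 and 24 hpf the dim red channel, with a 95th percentile of 330 and 290 units, limits the ratio, and replicate spots of a probe had an SD of 0.54 and 0.24 over 12 probes each.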
